A study of Mus musculus with 18 samples.

Results

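MEFs (mouse embryonic fibroblasts) that had been moved from Scm to Rcm were compared between 24 h and 12 h after the move. Scm and Rcm are complete media with S-FBS and R-FBS, fetal bovine sera that left the cells sensitive or resistant to ferroptosis, a death driven by peroxidation of membrane lipids. The members were the libraries whose titles name S-Rcm with 24 h or with 12 h, 3 of each, which are 6 of the 18 RNA-seq libraries of the study. All 18 libraries came from WT cells of 1 MEF cell line, which the methods state was acquired from the American Type Culture Collection. S-Rcm 12 h and S-Rcm 24 h had both grown in Scm and then received Rcm for the time in their name. The references were unmoved MEFs in Scm or in Rcm, and MEFs moved the opposite way for 12 h or 24 h (R-Scm 12 h and R-Scm 24 h). No group had its Scm replaced by fresh Scm, so that the arrival of R-FBS, the fresh medium and the hours since the change cannot be told apart. The methods state for cell culture experiments in general that independent replicates were used, while the labels of these libraries do not say whether they were separate cultures and give no batch or date. If they were not, p values measure only the spread between these libraries, which may be technical.

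Fibroblasts that meet new serum adjust several programs of gene expression. NRF2 is a transcription factor that raises enzymes which detoxify electrophiles and keep glutathione and thioredoxin reduced. SREBP2 is a membrane-bound transcription factor that is cut and released when sterols in the endoplasmic reticulum run low, and it drives the genes of cholesterol biosynthesis. ATF4 is translated when amino acids are scarce or the endoplasmic reticulum is stressed, and it raises amino acid synthesis and import. SRF, with its actin-regulated partners, drives the contractile genes of the cytoskeleton.

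Few genes passed the test between 12 h and 24 h, and their number depended on the tool. Of 15381 genes tested, 24 (0.156%) were DEGs, which had to pass both a log2 fold change of 0.58 in size and an adjusted p of 0.05. At 24 h, 10 were higher (0.065%) and 14 lower (0.091%). DESeq2 called 92 genes on the 18 libraries and 117 on the 2 groups alone, all 24 among them, while edgeR called 8 to 16 with 1 of the 6 libraries left out. The genes that fell included detoxifying enzymes (Gsta4, Gsta1, Nqo1, Ptgr1, Cyp1a1) and the endoplasmic reticulum chaperone Calr. Those that rose included sterol pathway genes (Msmo1, Fdps), genes of amino acid supply (Asns, Slc7a5) and contractile genes (Acta2, Csrp1). In all 24 the libraries of the 2 times did not overlap, which was also so for 17.2% of the genes tested, 8.75% with the 24 h libraries higher and 8.48% with them lower. Across the genes tested the change had a median of -0.01 on the log2 scale and was positive for 47.2%. Gsta4, Gsta1, Nqo1, Ptgr1, Esd, Ptprn and Csrp1 were called whichever of the 6 libraries was left out, and each of the other 17 DEGs lost its call in at least 2 of those 6 fits, as given beside it.

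**Figure D1:**
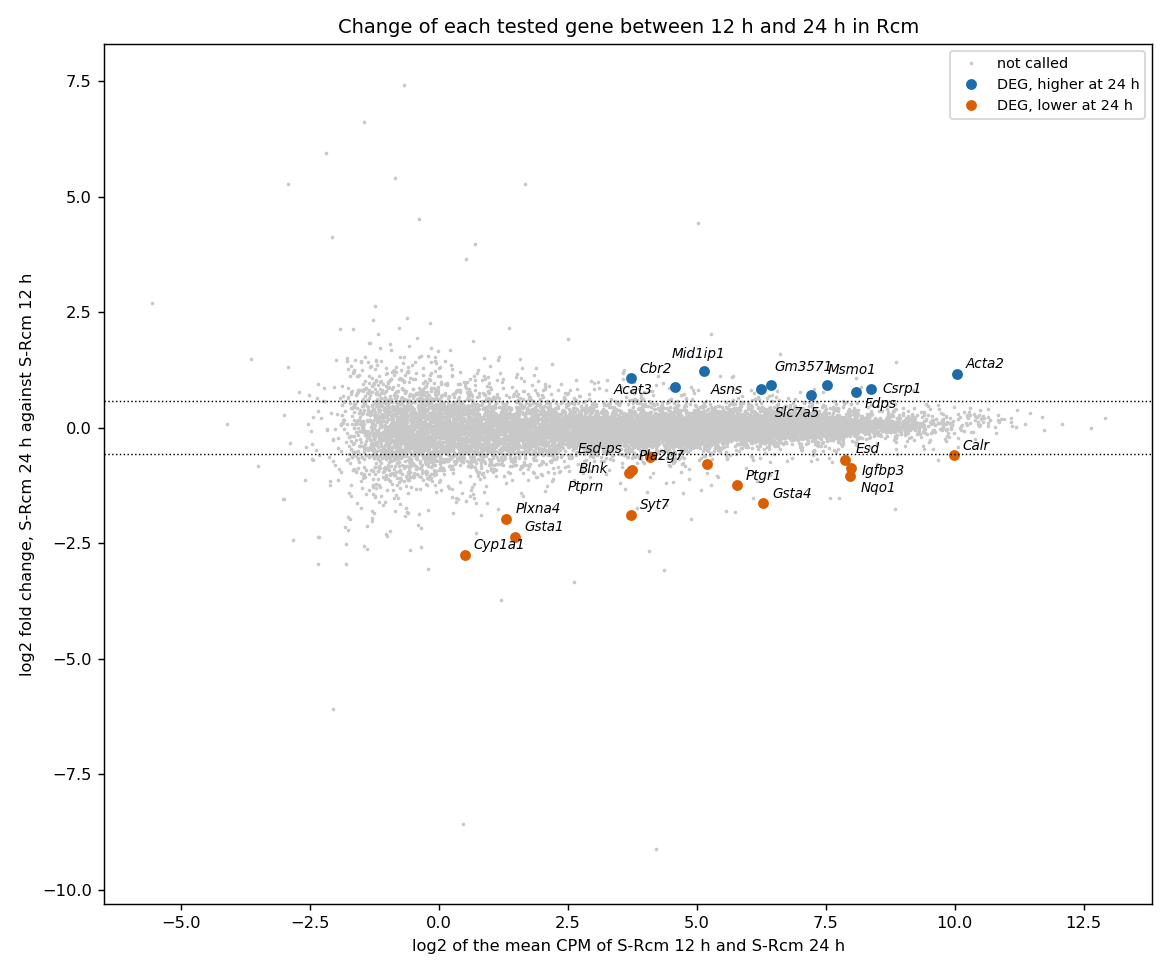
Each point is 1 of the 15381 genes tested, with the log2 of its mean CPM (counts scaled to a common library size) over the 2 groups on the horizontal axis and its log2 fold change at 24 h against 12 h on the vertical axis. Coloured points are the 10 DEGs higher and the 14 DEGs lower at 24 h, dotted lines mark log2 fold changes of 0.58 and -0.58, and the largest grey changes lie at genes that did not pass the test.

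The promoters of 3 DEGs from different groups and of Ptgr1 are shown because each holds the letters of a motif named for a regulator or family discussed here. They cover the 250 bases before the RefSeq gene start (GRCm38.p6), written on the strand of the gene. Capitals mark only the matches whose positions are given here. Other matches stay in lower case, such as GCGTG in Asns and Msmo1 and TGACNNNGC in Asns. Asns (chr6:7693210-7693459, minus strand) holds the ATF4 motif TGATGNAA at position -23 from the start. Msmo1 (chr8:64733579-64733828, minus strand) holds the NFY box CCAAT, which often lies beside SREBP sites, at -160, -96 and -55. Cyp1a1 (chr9:57697363-57697612, plus strand) holds GCGTG, the core of the element bound by the aryl hydrocarbon receptor, at -54. Ptgr1 (chr4:58987079-58987328, minus strand), a gene that fell, also holds the ATF4 letters, at -195, and CCAAT at -125.
Asns: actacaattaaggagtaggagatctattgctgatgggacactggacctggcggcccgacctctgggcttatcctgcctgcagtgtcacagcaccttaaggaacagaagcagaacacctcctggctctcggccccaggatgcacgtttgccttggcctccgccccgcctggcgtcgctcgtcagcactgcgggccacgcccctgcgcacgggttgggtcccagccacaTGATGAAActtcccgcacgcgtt
Msmo1: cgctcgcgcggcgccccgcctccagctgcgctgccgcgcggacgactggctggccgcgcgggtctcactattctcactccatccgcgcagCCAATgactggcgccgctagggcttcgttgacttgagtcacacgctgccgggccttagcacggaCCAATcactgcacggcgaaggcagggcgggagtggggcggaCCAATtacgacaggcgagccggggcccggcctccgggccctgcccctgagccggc
Cyp1a1: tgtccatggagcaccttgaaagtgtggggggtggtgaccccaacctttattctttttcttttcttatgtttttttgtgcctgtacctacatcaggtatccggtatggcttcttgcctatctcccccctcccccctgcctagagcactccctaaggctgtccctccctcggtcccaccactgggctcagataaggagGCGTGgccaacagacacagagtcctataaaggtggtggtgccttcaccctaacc
Ptgr1: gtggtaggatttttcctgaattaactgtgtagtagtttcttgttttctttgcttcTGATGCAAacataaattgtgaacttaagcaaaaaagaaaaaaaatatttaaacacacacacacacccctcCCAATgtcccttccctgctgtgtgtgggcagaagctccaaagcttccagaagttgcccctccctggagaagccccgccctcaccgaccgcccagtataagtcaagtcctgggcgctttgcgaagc
These letters are common. Both strands searched, TGATGNAA was found in 3.45%, CCAAT in 33.8% and GCGTG in 28.2% of 32851 RefSeq promoters of the same length. Of the 24 DEGs, 16 had a promoter in the table, 6 higher and 10 lower. The ATF4 letters were in 1 of the 6 and 1 of the 10, CCAAT in 1 and 3, and GCGTG in 3 and 4. The sterol element TCACNCCAC was in none of the 16 and in 1.05% of all promoters, and the antioxidant core TGACNNNGC, which the NRF2 complex binds, was in 1 of the 6 (Asns) and 2 of the 10 (Blnk and Calr), and in 10.2% of all. GCGTG and TGACNNNGC were chosen after the values were seen, and a match is a description of letters and not of binding.

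Several enzymes of detoxification fell. Gsta4 encodes a glutathione transferase that conjugates 4-hydroxynonenal, an aldehyde formed when lipids are oxidised, and lies at chr9:78182774-78209349 (GRCm38). Its expression was 119, 109 and 125 CPM in the 3 libraries of S-Rcm 12 h and 33.8, 38.4 and 41.1 CPM in those of S-Rcm 24 h. Every library at 12 h was thus far above every library at 24 h. The log2 fold change was -1.64 (SE 0.10), with an adjusted p of 3.56e-07 in edgeR's quasi-likelihood test, the lowest of all genes. MEFs kept in Scm expressed 35.8 ± 2.855 CPM (SD, n = 3) and those kept in Rcm 41.4 ± 2.60 CPM, so that the level at 24 h lay near that of either medium. In these bulk libraries, fewer cells that express a gene and less of its RNA per cell cannot be told apart.

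Nqo1 encodes a quinone reductase and is a classical NRF2 target (chr8:107388225-107403206, minus strand). It stood at 344, 329.8 and 337 CPM at 12 h and at 151, 162 and 177 CPM at 24 h. The 12 h libraries lay close together and none came near the 24 h libraries. The log2 fold change was -1.05 (SE 0.11, adjusted p = 0.000258). In Scm its level was 141.5 ± 7.85 CPM (SD, n = 3).

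Ptgr1, a reductase of prostaglandins, leukotrienes and lipid aldehydes (chr4:58965439-58987119, minus strand), had 78.0, 69.8 and 82.7 CPM at 12 h and 32.05, 30.8 and 34.2 CPM at 24 h. The groups did not overlap, and the 24 h mean of 32.3 CPM lay beside the 32.0 CPM of Scm. It fell by 1.25 on the log2 scale (SE 0.13, adjusted p = 0.000258).

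Gsta1, a glutathione transferase of the alpha class at chr9:78230656-78242684, fell by 2.36 on the log2 scale (SE 0.31, adjusted p = 0.00223). It held 78, 68 and 100 counts at 12 h and 10, 15 and 20 at 24 h. Its transcript shares 97.2% or more of its sequence with Gsta2 and with Gm3776, so that reads may be split among the copies. Gsta2 had a log2 fold change of -1.89 (adjusted p = 0.0691) and, with the counts of Gsta1, Gsta2, Gm3776 and Gm10639 summed, the change was -2.21 (adjusted p = 0.00145). Esd, the S-formylglutathione hydrolase, went from 288 ± 20.4 to 177 ± 5.30 CPM (SD, n = 3), a log2 fold change of -0.70 (SE 0.10, adjusted p = 0.00547). Its pseudogene Esd-ps, which shares 97.0% of the aligned bases and was named after its value was seen, fell by 0.62, with its call lost in each of the 6 fits with 1 library left out, and summing Esd with 9 such copies gave -0.66 (adjusted p = 0.00145).

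Cyp1a1, the monooxygenase that the aryl hydrocarbon receptor induces, had 52, 37 and 42 counts at 12 h and 2, 6 and 10 at 24 h. It had the largest fall of the DEGs, -2.75 on the log2 scale (SE 0.45, adjusted p = 0.0167), at a low level of 2.46 ± 0.39 against 0.36 ± 0.26 CPM (SD, n = 3). It was called in 2 of the 6 fits with 1 library left out, those without S-Rcm 12 h replicate 2 or S-Rcm 24 h replicate 3. Cyp1b1 and Tiparp, targets of the same receptor chosen after their values were seen, had log2 fold changes of -0.63 (adjusted p = 0.665) and -0.11 (adjusted p = 0.955). Cyp1b1 and Tiparp thus did not pass, but no list of the receptor's targets was made, and its part was not tested.

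In the list of NRF2 targets and glutathione genes, 4 of 25 members tested fell (Gsta4, Gsta1, Nqo1 and Esd) and 0 rose. At an unadjusted p under 0.05, 11 were lower and 0 higher, against 4.56% lower and 4.69% higher over all genes. The median log2 fold change was -0.34. G6pdx, which feeds NADPH into glutathione reduction, had an adjusted p of 0.0492 but a log2 fold change of only -0.41. Srxn1 (-0.49, adjusted p = 0.0675), Pgd (-0.39, adjusted p = 0.12) and Gsr (-0.34, adjusted p = 0.126) did not pass. Neither did Hmox1 (0.07), Gclm (0.28), Gclc (-0.16) and Txnrd1 (-0.20), which are also well known NRF2 targets. The changes thus differed in sign within the list, with 19 members negative and 6 positive, against 47.2% positive over all genes. The mean at 12 h was above that of Scm for 21 of the 25 genes, and the mean at 24 h for 13, counts that were not made over all genes.

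**Figure D2:**
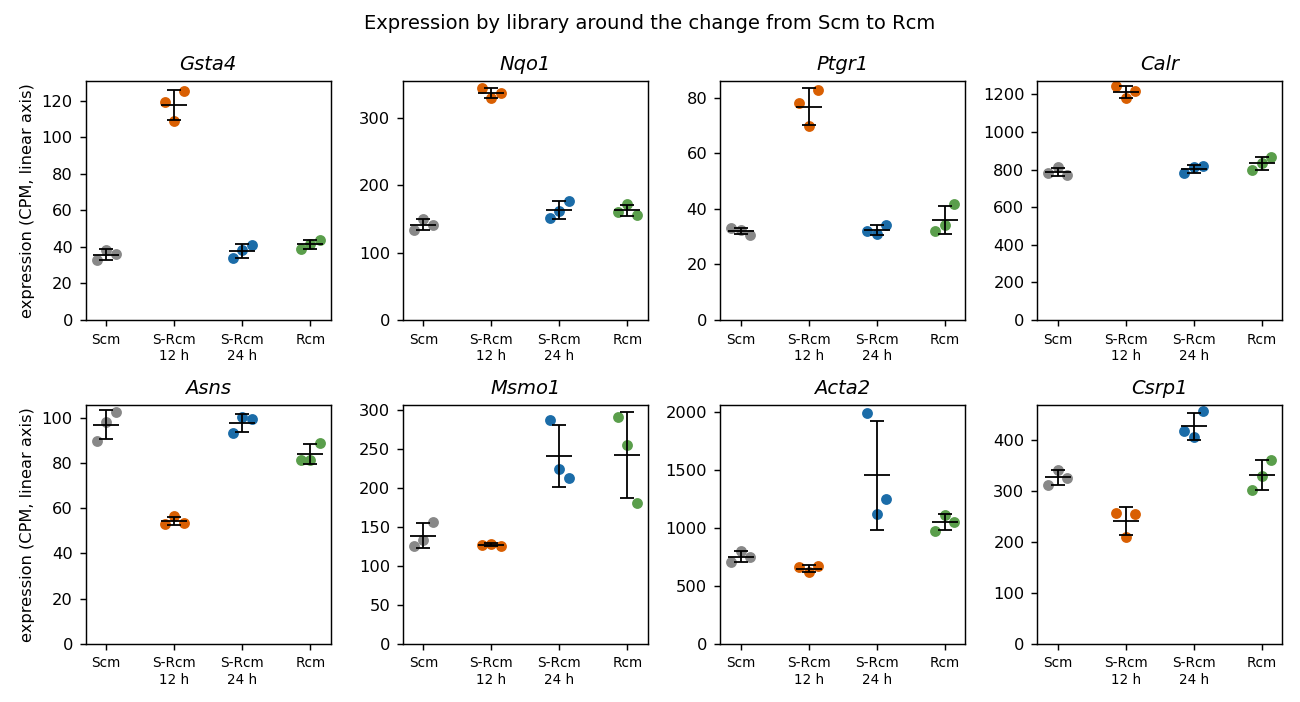
Expression of 8 genes in CPM (linear axes from 0) in the 3 libraries each of Scm, Rcm and S-Rcm at 12 h and at 24 h, with the mean and SD of the 3. Gsta4, Nqo1, Ptgr1 and Calr stand high at 12 h only, Asns stands low at 12 h only, Msmo1 and Acta2 are higher at 24 h than at 12 h, and Csrp1 is lowest at 12 h and highest at 24 h.

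The remaining genes that fell were of mixed function. Calr encodes calreticulin, a chaperone that binds calcium in the endoplasmic reticulum (chr8:84841850-84846934, minus strand). It had 1244, 1178 and 1218 CPM at 12 h and 780.4, 815 and 819.6 CPM at 24 h, beside 788 ± 22.8 CPM (SD, n = 3) in Scm. The groups stood well apart, with a log2 fold change of -0.59 (SE 0.07, adjusted p = 0.000618), just past the fold threshold. Without S-Rcm 12 h replicate 1 or S-Rcm 24 h replicate 1 it was -0.57 in each case and no longer past it. Of the 20 genes of the unfolded protein response list, which holds chaperones and other members such as Xbp1 and Sel1l, Calr was the only DEG. At an unadjusted p under 0.05, 9 were lower and 0 higher, against 4.56% and 4.69% of all genes, with a median log2 fold change of -0.22. Hspa5, the chief chaperone of the compartment, had 734, 773 and 769 CPM at 12 h and 708, 379 and 639.5 CPM at 24 h, and 1 library of 24 h was thus far below the rest (adjusted p = 0.439).

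Syt7, a calcium sensor of exocytosis, had 27.8, 24.0 and 10.1 CPM at 12 h and 5.36, 5.70 and 5.69 CPM at 24 h. The 12 h libraries were spread widely and the 24 h libraries were level with the 5.35 CPM of Scm. Its log2 fold change was -1.88 (SE 0.32, adjusted p = 0.0212), and another gene annotated on the same strand, AC124169.1, overlaps it. It was called only without S-Rcm 12 h replicate 3 among the 6 fits with 1 library left out. Ptprn, a secretory granule protein of the tyrosine phosphatase family, fell by 0.98 on the log2 scale (SE 0.13, adjusted p = 0.00284), from 17.0 ± 1.53 to 8.63 ± 0.72 CPM (SD, n = 3). Plxna4, a receptor for semaphorins, fell by 1.97 (SE 0.32, adjusted p = 0.0167) from 60, 66 and 82 counts to 11, 19 and 20, and was called in 2 of the 6 fits with 1 library left out, those without S-Rcm 12 h replicate 1 or S-Rcm 24 h replicate 3.

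Igfbp3, a secreted protein that binds insulin-like growth factors, had 333, 315.5 and 334.5 CPM at 12 h and 138, 202.5 and 198 CPM at 24 h. The lowest library was S-Rcm 24 h replicate 1. The log2 fold change was -0.87 (SE 0.16, adjusted p = 0.0369), and Igfbp3 was the only DEG among 15 genes of the IGF axis. Blnk, an adaptor of B cell receptor signalling, and Pla2g7, the plasma hydrolase of platelet-activating factor and oxidised phospholipids, fell by 0.91 (adjusted p = 0.0439) and 0.79 (adjusted p = 0.0384). Igfbp3, Blnk and Pla2g7 were not called in any of the 6 fits with 1 library left out, in which their adjusted p values were 0.0692 to 0.166.

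All 14 genes that fell had a higher mean at 12 h than in Scm, and 8 of them were DEGs in that comparison too, namely Gsta1, Gsta4, Nqo1, Ptgr1, Esd, Esd-ps, Syt7 and Calr. At 24 h none of the 14 was a DEG against Scm, and 12 lay nearer to Scm than at 12 h, Cyp1a1 and Blnk excepted. These comparisons share the S-Rcm libraries with the main one. Genes picked for being higher at 12 h than at 24 h tend to stand above Scm at 12 h for that reason alone. The same counts were not made over all genes, so these are given only as a description. In the means, 12 of the 14 genes thus stood above Scm at 12 h and nearer to it at 24 h.

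**Figure D3:**
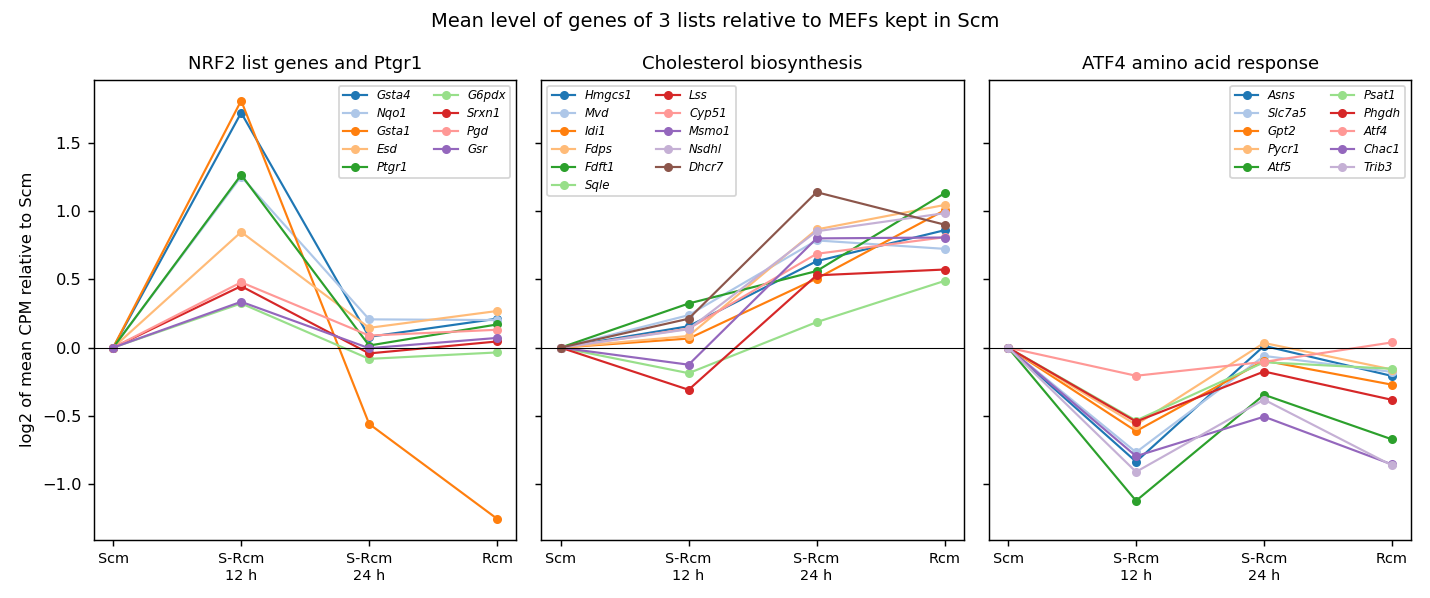
Log2 of the mean CPM relative to Scm (vertical axis) in Scm, in S-Rcm at 12 h and at 24 h, and in Rcm, with 1 line per gene for 8 genes of the NRF2 list and Ptgr1, 11 of cholesterol biosynthesis and 10 of the ATF4 list. The first group peaks at 12 h, but it holds only genes with lower means at 24 h than at 12 h. It leaves out the 6 members of the NRF2 list with a positive change. After the peak Gsta1 falls well below Scm, and G6pdx, Srxn1 and Gsr lie slightly below it. The sterol genes shown, without Ebp, lie near Scm at 12 h and above it at 24 h. Most ATF4 genes shown dip at 12 h and lie nearer to Scm at 24 h. All of them have a positive change, and the 7 members of the ATF4 list with a negative change are left out.

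Among genes of cholesterol biosynthesis, Msmo1 and Fdps rose. Msmo1, the methylsterol oxidase that removes methyl groups from sterol precursors (chr8:64718139-64733792, minus strand), had 127, 129 and 126 CPM at 12 h and 287, 224 and 213 CPM at 24 h. The 12 h libraries were nearly level, and the highest library was S-Rcm 24 h replicate 1. The log2 fold change was 0.92 (SE 0.15, adjusted p = 0.0167), and without that library it was 0.78 with an adjusted p of 0.0906. Without any 1 of the S-Rcm 12 h libraries it was 0.91 to 0.93, with adjusted p values of 0.0743 to 0.11. Scm and Rcm stood at 139 ± 15.9 and 242 ± 55.8 CPM (SD, n = 3), so that the gene was near Scm at 12 h and near Rcm at 24 h.

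Fdps, the synthase of farnesyl diphosphate, had 197, 193 and 209.8 CPM at 12 h and 370.5, 322 and 336 CPM at 24 h. No library overlapped, and the log2 fold change was 0.78 (SE 0.15, adjusted p = 0.0439). Its processed pseudogene Gm3571 shares 98.9% of the aligned bases and rose by 0.92 (SE 0.17, adjusted p = 0.0384). With the counts of Fdps and 5 such copies summed, the change was 0.82 (adjusted p = 0.029). Neither was called in any of the 6 fits with 1 library left out (adjusted p of 0.0869 to 0.176). Acat3, a cytosolic thiolase, rose by 0.88 (SE 0.16, adjusted p = 0.0335) and was called in 1 of those 6 fits, without S-Rcm 24 h replicate 2. It shares 97.7% of the aligned bases with Acat2, the thiolase that begins the sterol pathway, which had a log2 fold change of 0.58 (adjusted p = 0.314), and the 2 genes summed had 0.61 (adjusted p = 0.255). Acat3 also overlaps Tcp1 on the opposite strand, whose log2 fold change was 0.08, and whether strand was used in counting is not given in the sources used here.

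Of the 21 genes of the cholesterol list, all were tested and Msmo1 and Fdps rose. At an unadjusted p under 0.05, 17 were higher and 0 lower, against 4.69% higher and 4.56% lower over all genes. Of the 21 changes 20 were positive, Ebp being the exception (-0.07), against 47.2% of all genes. The median log2 fold change was 0.48 beside -0.01 over all genes. Nsdhl, which acts after Msmo1, had 66.5 ± 3.49 CPM at 12 h and 109 ± 12.9 CPM at 24 h (SD, n = 3) with a log2 fold change of 0.72, but its adjusted p of 0.0522 did not pass. Hmgcs1, the synthase that begins the mevalonate steps (0.48, adjusted p = 0.501), Dhcr7 (0.93, adjusted p = 0.282) and Lss (0.84, adjusted p = 0.126) did not pass either.

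The regulators of the pathway did not pass. Srebf2, the gene of SREBP2, had a log2 fold change of 0.29 (SE 0.14, adjusted p = 0.549), with overlapping libraries. Insig1, which retains SREBP in the endoplasmic reticulum, had 113, 116 and 104 CPM at 12 h and 199, 139.7 and 142 CPM at 24 h (0.53, adjusted p = 0.354). Insig1 thus separated the libraries of the 2 times without passing the test. The list of SREBP targets and regulators that holds both of these genes had 0 DEGs among 17 tested and a median of 0.16. Of the 17, 6 were higher and 1 lower at an unadjusted p under 0.05, against 4.69% and 4.56% of all genes.

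Genes of fatty acid synthesis, elongation and desaturation held 0 DEGs among 26 tested. At an unadjusted p under 0.05, 8 were higher and 1 lower, against 4.69% higher and 4.56% lower over all genes. The median log2 fold change of this list was 0.20. Scd1, the desaturase that makes monounsaturated fatty acids, had 309.8, 316 and 285 CPM at 12 h and 432, 335 and 348 CPM at 24 h. Its groups did not overlap, but the log2 fold change of 0.29 (SE 0.18) had an adjusted p of 0.701. Srebf1, the gene of SREBP1, was at 89.3 ± 9.51 and 89.8 ± 5.30 CPM (SD, n = 3), a log2 fold change of 0.01. Fasn, the fatty acid synthase, had a log2 fold change of 0.46 (adjusted p = 0.122), and Fads3, a desaturase family member, 0.46 (adjusted p = 0.0574). Mid1ip1, which promotes the assembly of acetyl-CoA carboxylase and lies outside the list, was the DEG with the largest rise. It had 26.0, 18.6 and 18.9 CPM at 12 h and 47.9, 50.1 and 50.7 CPM at 24 h, and its log2 fold change was 1.23 (SE 0.21, adjusted p = 0.0215), called in 1 of the 6 fits with 1 library left out, without S-Rcm 12 h replicate 1. The 24 h libraries were all far above those of 12 h, and Scm and Rcm stood at 29.8 ± 7.37 and 21.2 ± 4.15 CPM (SD, n = 3).

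Among genes of amino acid supply, Asns and Slc7a5 rose. Asns, the asparagine synthetase (chr6:7675169-7693254, minus strand), had 53.1, 56.4 and 53.4 CPM at 12 h and 93.3, 100.1 and 99.6 CPM at 24 h. The groups stood apart, and the 24 h mean of 97.7 CPM lay at the 96.8 CPM of Scm. The log2 fold change was 0.85 (SE 0.16, adjusted p = 0.0384). Slc7a5, the light chain of the transporter of large neutral amino acids, had 119.9, 111 and 107 CPM at 12 h and 204, 178 and 169 CPM at 24 h, a rise of 0.70 (SE 0.13, adjusted p = 0.0304). Its Scm level was 191 ± 4.12 CPM (SD, n = 3). Neither Asns nor Slc7a5 was called in any of the 6 fits with 1 library left out, in which the adjusted p values were 0.0998 to 0.166 and 0.0536 to 0.158.

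In the ATF4 list 2 of 43 genes tested rose and 0 fell. At an unadjusted p under 0.05, 21 were higher and 3 lower, against 4.69% higher and 4.56% lower over all genes, and the median log2 fold change was 0.28. Gpt2, an alanine transaminase, had an adjusted p of 0.0391 with a log2 fold change of 0.52, under the fold threshold. Atf5 (0.78, adjusted p = 0.091) and Pycr1 (0.60, adjusted p = 0.0691) passed the fold threshold alone. Atf4 itself had 0.10 (adjusted p = 0.972), Ddit3 0.06 (adjusted p = 0.943) and Vldlr, a lipoprotein receptor on the list, -0.62 (adjusted p = 0.0912). The mean at 24 h was above that at 12 h for 36 of the 43 genes, beside 47.2% of all genes with a positive log2 fold change. The mean at 12 h was below that of Scm for all but 4 of the 43, a count that was not made over all genes.

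Among contractile genes, Acta2 and Csrp1 rose. Acta2, smooth muscle actin (chr19:34241090-34255590, minus strand), had 659, 616 and 668 CPM at 12 h and 1994, 1117 and 1249 CPM at 24 h. Every 24 h library was above every 12 h library, with S-Rcm 24 h replicate 1 far above the others. The log2 fold change was 1.17 (SE 0.20, adjusted p = 0.0215), and 0.87 (adjusted p = 0.0867) without that library. Without any 1 of the S-Rcm 12 h libraries it was 1.13 to 1.19, with adjusted p values of 0.0813 to 0.123. Csrp1, an actin-binding LIM protein (chr1:135720061-135752232), had 257, 209 and 255 CPM at 12 h and 418, 406 and 457 CPM at 24 h. Its groups were well separated and its log2 fold change was 0.83 (SE 0.11, adjusted p = 0.00182), with 326 ± 15.1 CPM (SD, n = 3) in Scm.

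Of 32 genes tested in the list of SRF and YAP targets and contractile genes, which does not hold Csrp1, Acta2 was the only DEG. At an unadjusted p under 0.05, 13 were higher and 0 lower, against 4.69% higher and 4.56% lower over all genes. Positive changes made up 31 of 32, against 47.2% of all genes, and the median was 0.34. Vcl, Flna and Tpm1, which tie actin to the membrane or stiffen it, had log2 fold changes of 0.41 (adjusted p = 0.0903), 0.38 (adjusted p = 0.145) and 0.18 (adjusted p = 0.593). Ccn2, a YAP target, had 0.18 (adjusted p = 0.879) and Srf 0.00. Without S-Rcm 24 h replicate 1 the median of the list was 0.27. Skeletal muscle markers, of which 4 of 7 were at 0 in all 6 libraries, summed to 1.195 to 1.96 CPM at 12 h and 3.85 to 5.58 CPM at 24 h, mostly as Acta1 (log2 fold change 1.48, adjusted p = 0.0887), and their part in the result was not tested. Cbr2, a carbonyl reductase outside the lists, was the remaining gene that rose, from 8.47 ± 0.90 to 17.8 ± 2.72 CPM (SD, n = 3), by 1.07 on the log2 scale (SE 0.21, adjusted p = 0.0439), and was not called in any of the 6 fits with 1 library left out (adjusted p of 0.0638 to 0.21).

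**Figure D4:**
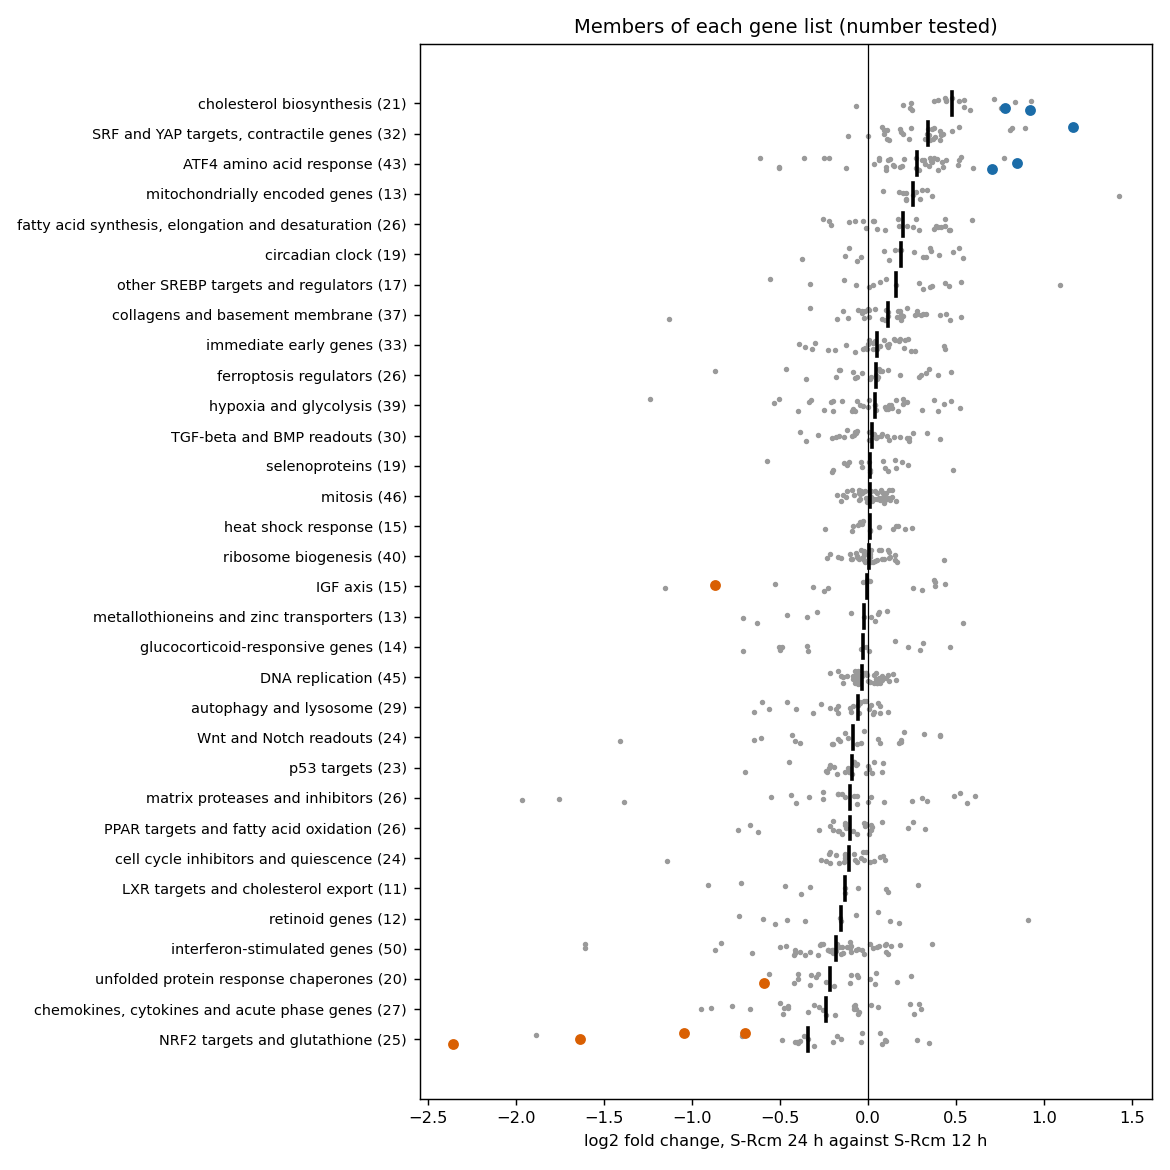
Log2 fold change at 24 h against 12 h (horizontal axis) of each member of the 32 pathway lists, with the number of members tested in brackets and a bar at the median. Coloured points are DEGs, blue when higher and orange when lower, and the medians run from -0.34 in the NRF2 list to 0.48 in the cholesterol list.

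The lists of DNA replication, mitosis and ferroptosis genes held 0 DEGs. In DNA replication (45 genes) and mitosis (46 genes) 0 members reached an unadjusted p under 0.05 in either direction, and their medians were -0.03 and 0.01. In the ferroptosis list 0 of 26 genes were DEGs. There, 3 were higher and 3 lower at an unadjusted p under 0.05, against 4.69% and 4.56% of all genes. Gpx4, the peroxidase that reduces lipid hydroperoxides, stood at 120.5 ± 9.69 and 121.5 ± 6.19 CPM (SD, n = 3), a log2 fold change of 0.01. Slc7a11, the cystine transporter, had 33.5, 33.2 and 22.5 CPM at 12 h and 22.8, 53.8 and 36.4 CPM at 24 h (0.34, adjusted p = 0.881), and its groups overlapped. Fth1, a ferritin subunit, had -0.47 (adjusted p = 0.276). Apoh, the gene of the serum apolipoprotein H that the study concerns, held 4, 7 and 1 counts at 12 h and 4, 2 and 2 at 24 h, too few to be tested.

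The opposite exchange was used to ask which of these changes were particular to the move into Rcm. Between R-Scm 12 h and R-Scm 24 h, 119 genes were DEGs (0.774%), 51 higher and 68 lower. Shared with S-Rcm were 9 genes, 37.5% of the 24 and 7.56% of the 119, namely Gsta1, Gsta4, Ptgr1, Nqo1, Esd, Slc7a5, Fdps, Gm3571 and Msmo1. Of the 24 DEGs of S-Rcm, 23 had the same sign in R-Scm, as had 58.4% of all genes tested. Over the 15381 genes the 2 changes had a Pearson correlation of 0.22, given as a description since genes are not independent.

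A test of the difference between the 2 exchanges gave 0 DEGs in edgeR's quasi-likelihood test, with 917 genes (5.96%) at an unadjusted p under 0.05 and a lowest adjusted p of 0.201. Gsta4 fell by 0.92 in R-Scm (adjusted p = 0.000598), and the difference of -0.71 (SE 0.15) had an adjusted p of 0.359. Nqo1 (-0.92 in R-Scm) and Esd (-0.72 in R-Scm) fell to a like extent there, with differences of -0.13 (SE 0.16) and 0.02 (SE 0.14). Mid1ip1, the exception in sign, had -0.31 in R-Scm, from 42.4 to 34.3 CPM, and a difference of 1.54 (SE 0.29, adjusted p = 0.349). Cbr2 had a mean of 14.1 CPM at both times in R-Scm, from 14.9, 12.1 and 15.2 CPM at 12 h and 20.3, 9.78 and 12.2 CPM at 24 h. Its difference of 1.07 (SE 0.29) had an adjusted p of 0.733.

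DESeq2 on the 18 libraries called 7 genes for this difference, Cxcl10, Edn1, Gbp2b, Gm16001, Gsta4, Mid1ip1 and Vldlr. Without R-Scm 24 h replicate 1, edgeR called 29, among them Mid1ip1, Cbr2, Vldlr, Cxcl10, Dhrs3, Nfkbia and Ifit1. For the interferon-stimulated genes the median change was -0.18 in S-Rcm and -1.12 in R-Scm. In S-Rcm 0 of the 50 were DEGs, and 3 were lower at an unadjusted p under 0.05, against 4.56% of all genes. Medians in S-Rcm and R-Scm were 0.48 and 0.66 for cholesterol biosynthesis, -0.34 and -0.17 for the NRF2 list and 0.28 and 0.44 for the ATF4 list. They were -0.22 and -0.26 for the unfolded protein response list and 0.34 and 0.06 for the contractile list. The differences between these medians were not tested. In R-Scm 24 h, replicate 1 stood above the other libraries for Fdps (280, 161 and 163 CPM) and Hmgcs1 (402, 228 and 194 CPM). For Msmo1 it did not (152.5, 161 and 137 CPM). The medians of R-Scm and the calls shared with it were not computed without that library. In S-Rcm 24 h, replicate 1 was likewise the highest for Fdps (370.5, 322 and 336 CPM) and Hmgcs1 (511, 373 and 382 CPM). Whether the likeness of the 2 exchanges rests in part on these 2 libraries was not tested.

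**Figure D5:**
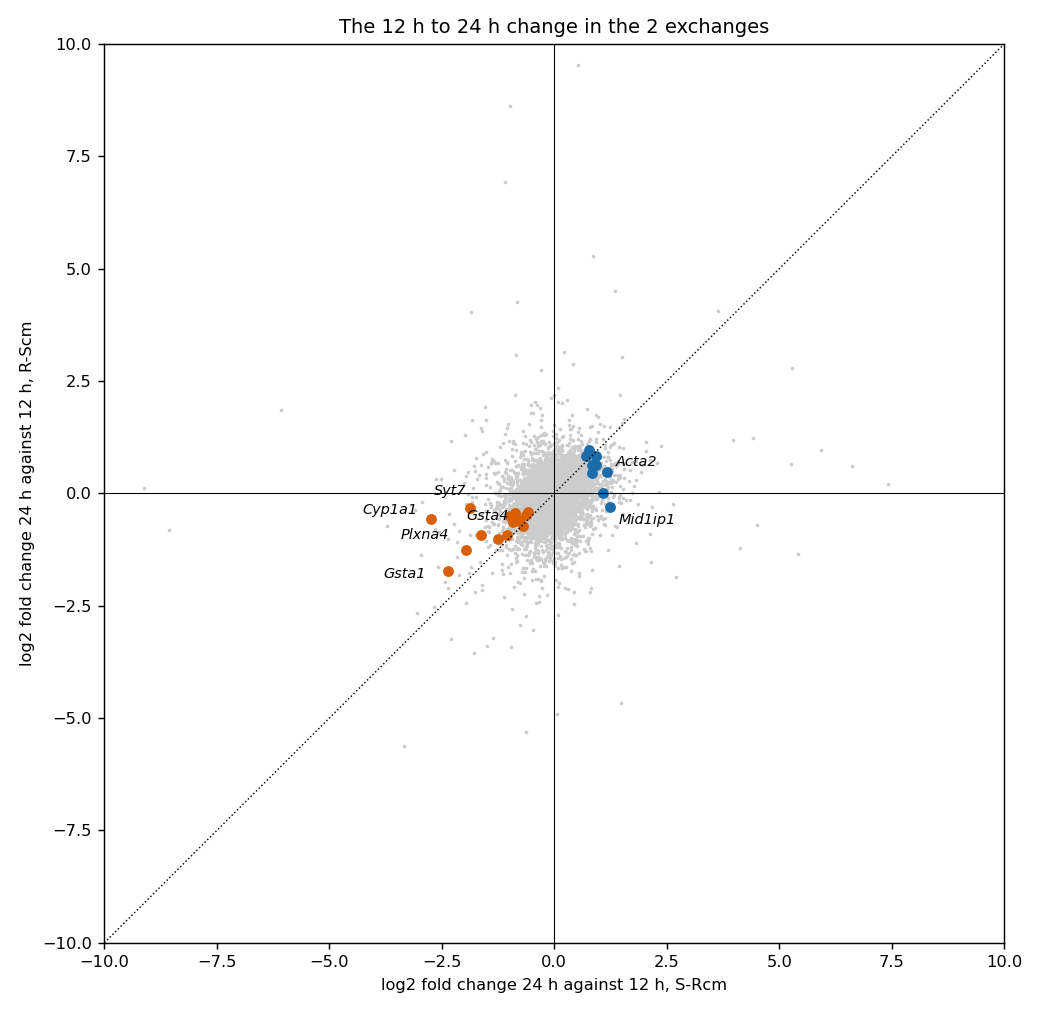
Log2 fold change at 24 h against 12 h in S-Rcm (horizontal axis) and in R-Scm (vertical axis) of each gene tested, with the DEGs of S-Rcm in blue (higher) and orange (lower) and a dotted line of equal change. Of the 24 DEGs, 23 lie on the same side of 0 in both exchanges and Mid1ip1 does not.

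The libraries held 15831356 to 17897649 counts. Correlations of log2 CPM were 0.982 to 0.987 within the groups and 0.975 to 0.986 between them, and replicates differed beyond counting error (chi-square over its degrees of freedom, 10.7 to 25.9). Summed fibroblast markers (11 of 13 tested) were 9168 to 10100 CPM at 12 h and 10300 to 11690 CPM at 24 h, so that the label's cell type was present. Macrophage markers summed to 2.31 to 3.55 CPM, endothelial to 1.255 to 1.85 CPM at 12 h and 0.71 to 0.79 CPM at 24 h, with 0 DEGs, and adipocyte to 2.27 to 4.11 CPM, with 3 of 10, 1 of 7 and 3 of 6 members at 0 in all 6 libraries, and epithelial markers to 7.24 to 10.45 CPM with 2 of 8 at 0. The neural and glial list, with 1 of 7 at 0, summed to 152 to 167 CPM at 12 h and 108 to 127 CPM at 24 h, mostly as Sox2, Nes and Tubb3, with 0 DEGs, and the part of neither it nor the endothelial list in the results was tested. Mitochondrially encoded genes took 1.81% to 2.35% of counts at 12 h and 2.18% to 2.64% at 24 h.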

How the data were processed

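RNA of WT MEFs was extracted with the RNeasy mini kit, made into mRNA-seq libraries (ABclonal), sequenced as paired ends and aligned to GRCm38 with HISAT2 by the authors, who deposited raw counts of reads per gene (55487 genes) without normalization. The counting tool, its use of strand and its handling of multiple alignments are not given in the sources used here.

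Columns were assigned to groups from the sample titles. Genes were kept with edgeR's filterByExpr over the 6 groups (15381 kept), scaled with TMM factors, and a robust quasi-likelihood model was fitted to all 18 libraries (12 residual degrees of freedom), from which S-Rcm 24 h minus S-Rcm 12 h was tested with Benjamini-Hochberg adjustment over all genes. CPM are counts scaled to a common library size with the TMM factors. The difference between the exchanges was an interaction contrast. Counts were modelled with edgeR 4.0.16 (on limma 3.58.1) and, as an alternative, DESeq2 1.42.0, in R 4.3.3, copies were sought with blastn 2.17.0, and figures drawn with matplotlib 3.10.9 under Python 3.11.15. The scripts were tested on simulated data with 200 changed genes.

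The members, gene lists and genes were chosen with earlier results of these data known. Genes named are the up to 12 largest DEGs in each direction (mean of at least 1 CPM, no overlap), up to 5 DEGs of each of the 32 pathway lists or the 2 members of lowest p where it had none, and 10 genes of lipid metabolism and ferroptosis, some of which are not reported here. Chosen after their values were seen were Cyp1b1, Tiparp, Gsta2, Srxn1, Pgd, Gsr, G6pdx, Hmox1, Gclm, Gclc, Txnrd1, Esd-ps, Nsdhl, Dhcr7, Lss, Ebp, Acat2, Tcp1, Gpt2, Atf5, Atf4, Pycr1, Ddit3, Vldlr, Hspa5, Vcl, Flna, Tpm1, Ccn2, Srf, Acta1, Spp1, Lbh, Litaf, Msrb3, Ctnna1 and the genes named from alternative fits. Coordinates are those of GENCODE on GRCm38, promoters those of RefSeq. Alternatives were RLE and upper-quartile scaling, no filter or a minimum of 10 counts per library, a fit blocked on replicate, DESeq2, fits of the compared groups alone, other thresholds, libraries left out in turn and, chosen after seeing the data, counts summed over near-identical copies and the joint omission of 2 libraries.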

Additional observations from a re-analysis of the deposited data

How the results depend on the processing

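The 24 DEGs (10 higher, 14 lower) all remained under RLE scaling, 22 remained among 23 under upper-quartile scaling, 23 among 27 without a filter, 21 among 24 with a minimum of 10 counts in each library and 14 among 20 with edgeR on the 2 groups alone. DESeq2 called 92 (35 higher, 57 lower) on the 18 libraries and 117 (43 higher, 74 lower) on the 2 groups, each including all 24. With an adjusted p under 0.01, 8 remained (1 higher, 7 lower), and without a fold threshold there were 33, of which 18 were higher. With 1 library left out the count ran from 8 to 16 (S-Rcm 24 h replicate 1 and replicate 3 omitted), 1 to 5 higher and 6 to 11 lower, and every omission but that of S-Rcm 24 h replicate 3 moved it by over 1.5 times. It was 9, 10 and 11 without S-Rcm 12 h replicates 2, 3 and 1, and 11 without S-Rcm 24 h replicate 2. Ptgr1, Gsta1, Csrp1, Esd, Ptprn, Nqo1 and Gsta4 were called in all 6 such fits, Blnk, Igfbp3, Pla2g7, Fdps, Cbr2, Esd-ps, Asns, Gm3571 and Slc7a5 in none. Without both S-Rcm 12 h replicate 2 and S-Rcm 24 h replicate 1, 8 DEGs were found (2 higher, 6 lower). The cause of these shifts was not tested, other than that an arm of 2 libraries has fewer samples.

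For the difference between the exchanges DESeq2 called 7 genes, edgeR on the 4 exchange groups 1 (Gm37108), and the fits with 1 library left out 0 to 29. The range was set by R-Scm 24 h replicate 1, while leaving out S-Rcm 12 h replicate 3 gave 1 (Kirrel). With 1 library left out, medians of the ATF4 list ran from 0.25 to 0.32 and those of the unfolded protein response list from -0.26 to -0.16. Those of the contractile list ran from 0.27 to 0.37. The ATF4 and contractile medians were 0.24 and 0.25 without both libraries. Changes near 0 turned sign. Srebf1 was -0.00812 with upper-quartile scaling, -0.00963 without both libraries and -0.0731 to 0.0789 with 1 left out, below 0 without S-Rcm 12 h replicate 3, S-Rcm 24 h replicate 1 or S-Rcm 24 h replicate 3. Gpx4 was -0.00327 with upper-quartile scaling, -0.0774 without both libraries and -0.0531 to 0.0539 with 1 left out, below 0 without S-Rcm 12 h replicate 2, S-Rcm 24 h replicate 1 or S-Rcm 24 h replicate 3. Slc7a11 ran from -0.00475 (without S-Rcm 24 h replicate 2) to 0.603.

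With the replicate number as a block there were 24 DEGs, 20 of them shared, 11 higher and 13 lower. Same-numbered libraries of S-Rcm 12 h and S-Rcm 24 h showed no clear shared deviation. Their deviations from the group means correlated at -0.07, -0.08 and 0.08. Not every library correlated best with its own number. Such correlations cannot show whether same-numbered libraries came from the same experiment, which the labels do not say. The replicate numbers used here, and the block, are those of the sample titles. The count columns number the 24 h libraries 1, 3 and 4, by which 12 h replicate 3 would share its number with 24 h replicate 2 (correlation 0.05), and no block was fitted on those numbers. Libraries of the 2 exchanges were not compared in this way. Replicate 1 at 24 h stood apart in both for some genes, picked after their values were seen. Igfbp3 had 138, 202.5 and 198 CPM in S-Rcm 24 h and 131, 199 and 196 CPM in R-Scm 24 h. Insig1 had 199, 139.7 and 142 CPM in S-Rcm 24 h and 138, 67.9 and 82.8 CPM in R-Scm 24 h. For Msmo1 this held in S-Rcm 24 h only.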

Other observations

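Some genes with large differences in level did not pass the test. Mmp3, the stromelysin that cuts matrix proteins, had 686, 737.5 and 707.5 CPM at 12 h and 116, 264 and 251 CPM at 24 h, and its log2 fold change of -1.76 (SE 0.34) had an adjusted p of 0.0522. Its groups were far apart, and the spread lay among the 24 h libraries, of which replicate 1 was lowest. Mmp13, a collagenase, had 47.3 ± 4.85 and 12.1 ± 6.23 CPM (SD, n = 3), with -1.97 on the log2 scale (adjusted p = 0.122). Spp1, the gene of osteopontin, had 453 ± 32.1 and 262 ± 42.9 CPM, with -0.79 on that scale (adjusted p = 0.0519). In Scm these 3 genes, chosen in part after their values were seen, stood at 218, 8.71 and 172 CPM. Of 26 matrix proteases and inhibitors, 0 were DEGs, with 2 higher and 5 lower at an unadjusted p under 0.05 and a median of -0.10. Of 27 chemokines, cytokines and acute phase genes, 0 were DEGs, with 2 higher and 5 lower and a median of -0.24. Over all genes 4.69% were higher and 4.56% lower at that unadjusted p.

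Circadian clock genes held 0 DEGs among 19. Of these, 6 were higher and 0 lower at an unadjusted p under 0.05, against 4.69% and 4.56% of all genes. Cry1, a repressor within the clock, had 20.7 ± 3.06 CPM at 12 h and 28.9 ± 1.66 CPM at 24 h (SD, n = 3), and Ciart, which acts beside it, had 4.53 and 6.496 CPM. Their log2 fold changes were 0.48 and 0.52 (adjusted p = 0.268 each). The hypoxia list held 0 DEGs, but Ndrg1, a gene of growth arrest and low oxygen, had a log2 fold change of 0.53 with an adjusted p of 0.0215. It stood at 98.4 ± 5.83 CPM in Scm, 48.6 ± 1.56 CPM at 12 h and 69.9 ± 6.73 CPM at 24 h (SD, n = 3), so that it was lowest at 12 h. Lbh (0.42, adjusted p = 0.0167), Litaf (0.43, adjusted p = 0.0304), Msrb3 (0.55, adjusted p = 0.029) and Ctnna1 (0.36, adjusted p = 0.0349) also passed the adjusted p without the fold threshold.

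Each of the 13 mitochondrially encoded genes had a positive log2 fold change (median 0.25) with 1 at an unadjusted p under 0.05, and a negative one in R-Scm (median -0.16). The 42 collagen and basement membrane genes (37 tested, 2 higher and 0 lower at an unadjusted p under 0.05), the 31 Wnt and Notch genes (24 tested, 0 and 3) and the PPAR list (26 tested, 1 and 2) held 0 DEGs each. The 12 lists of LXR targets, heat shock, cell cycle inhibitors, p53 targets, immediate early genes, TGF-beta readouts, glucocorticoid-responsive genes, metallothioneins, retinoid genes, ribosome biogenesis, selenoproteins and autophagy also held 0 DEGs. Their medians ran from -0.16 (retinoid genes) to 0.05 (immediate early genes), which can hide changes in both directions. Of 14 glucocorticoid-responsive genes tested, 3 were higher and 6 lower at an unadjusted p under 0.05. Retinoid genes had 1 higher and 4 lower among 12, and selenoproteins 0 of either among 19. Over all genes 4.69% were higher and 4.56% lower at that p.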
